A study of Sus scrofa with 4 samples.

Results

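The genes described here are 35 mRNAs. Most code for proteins that fold, modify, translocate or dispose of secretory proteins in the endoplasmic reticulum (ER), or that sense and transmit ER stress. The other 6 are targets of the integrated stress response, a wider programme described below that is not confined to the ER. All 35 were chosen by gene name for their known role, and no threshold on their values was used. Earlier results of these data were known when they were chosen. All 35 were found among the 16192 protein-coding genes of the series, and 33 of them belonged to the 9191 reliably expressed mRNAs, meaning those that reached FPKM 1 in 3 or 4 of the 4 libraries. The 2 members outside this group were ERN1 and SYVN1.

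Subcutaneous preadipocytes were isolated from male, 5-day-old Chinese Erhualian piglets and differentiated in culture. D0 is the confluent culture before induction, D2 follows 2 days in a cocktail of dexamethasone, 3-isobutyl-1-methylxanthine and insulin, D4 follows a further 2 days with insulin alone, and D8 follows 4 more days in growth medium. For each stage the RNA of 3 piglets was mixed into 1 library, so each value below stands for 1 pool, no spread between animals was measured, and stage and library cannot be told apart. No difference between stages was therefore tested.

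Proteins that enter the ER are bound by HSPA5 (BiP) and HSP90B1 (GRP94) with their co-chaperones, by the sugar-binding chaperones CALR and CANX, and by protein disulfide isomerases. Chains that fail to fold are returned to the cytosol and degraded, a route called ER-associated degradation. When unfolded chains accumulate, the membrane sensors ERN1 (IRE1), EIF2AK3 (PERK) and ATF6 raise the folding capacity through the transcription factors XBP1, ATF6 and ATF4. ATF4 also answers to amino acid shortage, a wider programme known as the integrated stress response. Adipocytes are secretory cells, and the unfolded protein response is known to be engaged as they differentiate.

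Levels are given as FPKM, fragments per kilobase of gene scaled to the fragments counted in the library, as deposited by the authors. Differences are log2 ratios of FPKM + 0.01, and "rose" and "fell" are used only for a difference of at least 1.5-fold, without a test. The 95% intervals in parentheses are exact Clopper-Pearson intervals on fragment numbers computed from the deposited values, and they cover counting error only. The library totals ran from 54128151 to 75387428 fragments, and a single member held between 154 (ERO1B at D4) and 84804 (HSP90B1 at D0) of them. At this depth the counting interval of a log2 ratio between D4 and D0 had a median width of 0.09 over the 35 members, with the widest, 0.58, for ERO1B.

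The summed FPKM of 8 adipocyte markers was 107, 379, 1576 and 2072 at D0, D2, D4 and D8, so that it was lowest before induction. FABP4 held much of this sum, with 77.5, 201, 853 and 1557. Of the 6 reliably expressed markers, 2 were higher at D8 than at D4 (35.1% of all mRNAs) and 4 were lower. Their median log2 ratio of D8 to D4 was -0.49. The summed FPKM of 7 preadipocyte or fibroblast markers was 1130, 2272, 3034 and 2296 in the same order. This sum was also lowest in the preadipocyte library D0, and highest at D4. COL3A1 held much of it, with 491, 1286, 2058 and 1624. The list did not share 1 course, since 3 of the 7 markers were lowest at D0, 3 at D8 and 1 at D4. Of 5 endothelial markers with a value, 4 stayed under FPKM 1 in every library, and the sum of the list was between 1.16 and 2.65. CDH5, TEK and VWF were each listed at 0 in at least 1 library. Of 6 leukocyte markers, CD14 and CD163 were reliably expressed, CSF1R was listed at 0 at D8, and the sum of the list was between 4.47 and 9.03. The 3 skeletal muscle markers with a value summed to 0.507 or less. The part of changing cell composition in the differences below was not tested, and in pooled bulk RNA fewer cells of a type and less RNA per cell cannot be told apart. The signal recognition particle RNA held 12.4%, 17.1%, 12.5% and 16.5% of all fragments at D0, D2, D4 and D8. The values are therefore also given, where it matters, with the libraries rescaled on mRNAs.

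**Figure D1:**
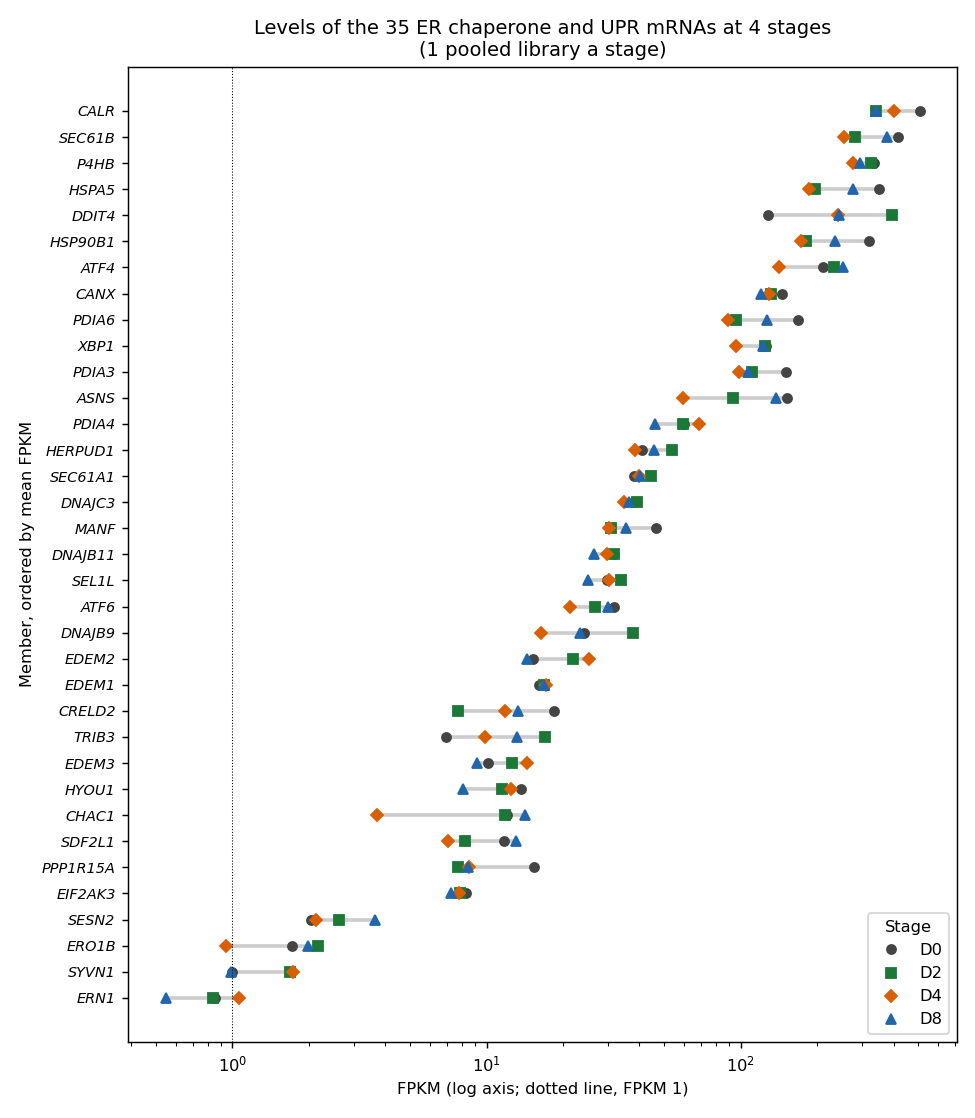
FPKM of each of the 35 members (rows, ordered by mean FPKM) in the 4 libraries, on a log axis; circles are D0, squares D2, diamonds D4 and triangles D8, and grey bars join the lowest and highest value. CALR, SEC61B and P4HB lie at the top, ERN1 and SYVN1 lie around FPKM 1, and the D4 diamond is the leftmost point for many of the abundant chaperones.

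The members spanned a wide range of levels. CALR had the highest mean FPKM, 398, followed by SEC61B with 333, P4HB with 308, HSPA5 with 252 and DDIT4 with 252. At the other end, the mean was 0.825 for ERN1, 1.35 for SYVN1, 1.71 for ERO1B and 2.61 for SESN2. In all, the 35 members took 0.806% (95% Wilson interval 0.804% to 0.808%) of the D0 fragments, 0.710% (0.708% to 0.712%) of those of D2, 0.622% (0.620% to 0.624%) of those of D4 and 0.708% (0.706% to 0.710%) of those of D8. The share of all fragments was thus lowest at D4 and had the same height, within counting error, at D2 and D8. The mRNAs together held 78.7%, 70.8%, 75.7% and 73.1% of all fragments at D0, D2, D4 and D8. The shares of the members were not adjusted for this. By role, the Hsp70 and Hsp90 group took 0.236% of the fragments at D0 and 0.136% at D4, and the isomerases and oxidase 0.143% and 0.113%. The equal height at D2 and D8 held for the sum and not for each role. The Hsp70 and Hsp90 group took 0.148% at D2 and 0.182% at D8, and the integrated stress response targets 0.0968% and 0.0779%.

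The median log2 ratio of the 33 reliably expressed members was -0.03 for D2 vs D0, -0.16 for D4 vs D2, 0.17 for D8 vs D4, -0.33 for D4 vs D0 and -0.14 for D8 vs D0. Over all 9191 reliably expressed mRNAs the medians were -0.03, 0.09, -0.21, 0.06 and -0.18 in the same order. From D2 to D4 and from D4 to D8 the members therefore lay on the other side of 0 from the median mRNA. With the libraries rescaled by the median ratio of mRNAs, the all-gene median of D8 vs D4 moved from -0.21 to 0.00, and the members' medians became 0.00 for D2 vs D0, -0.25 for D4 vs D2, 0.38 for D8 vs D4, -0.39 for D4 vs D0 and 0.02 for D8 vs D0. The directions of D4 vs D2, D8 vs D4 and D4 vs D0 held under this scaling and under scaling on the sum of protein-coding FPKM. That of D2 vs D0 turned under both, and that of D8 vs D0 under the median ratio.

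Of the 33 members, 13 were higher at D2 than at D0 (48% of all mRNAs were), 8 higher at D4 than at D2 (62.5%), 22 higher at D8 than at D4 (35.1%), 9 higher at D4 than at D0 (53.8%) and 10 higher at D8 than at D0 (31.5%). Between D2 and D0, 3 members rose (15.6% of all mRNAs did) and 7 fell (20.1%), or 3 and 6 after median-ratio scaling (16.8% and 18.8%). Between D4 and D2, 1 member rose (11.7%) and 7 fell (2.96%), or 0 and 7 after median-ratio scaling (9.02% and 4.28%). Between D8 and D4, 6 members rose (9.92%) and 3 fell (25.9%), and after median-ratio scaling 13 rose (15.5%) and 1 fell (16%). Between D4 and D0, 2 rose (22%) and 12 fell (17.5%), or 2 and 15 after median-ratio scaling (20.1% and 19.6%). Between D8 and D0, 3 rose (6.92%) and 2 fell (14.6%), the same numbers as after median-ratio scaling (9.54% and 8.75%). At a threshold of 2-fold, the counts of higher and lower members were 2 and 1 for D2 vs D0 (6.67% and 10.1% of all mRNAs), 0 and 3 for D4 vs D2 (4.24% and 0.838%), 3 and 0 for D8 vs D4 (4.43% and 10.1%) and 0 and 2 for D4 vs D0 (10.4% and 8.81%). No member passed 2-fold between D8 and D0 (3.6% and 3.68%).

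The number of members that changed at all was close to that of other mRNAs, since 20 of 33 passed 1.5-fold in at least 1 of the 5 comparisons and 60.3% of all mRNAs did. D4 was the stage with the lowest FPKM for 17 of the 33 members, against 17.5% of all mRNAs, and the stage with the highest for 4, against 37.3%. After median-ratio scaling D4 was lowest for 20 of 33 members, against 27.5%, and after protein-coding scaling for 17, against 18.4%. D0 was highest for 17 members (36.5% of all mRNAs), D2 for 8 (16.7%) and D8 for 4 (9.51%). D0 was lowest for 5 (22.8%), D2 for 2 (22.2%) and D8 for 9 (37.5%). In all, 13 members were lower at both D2 and D4 than at D0 and higher again at D8 than at D4 (27.9% of all mRNAs). That count was 14 after median-ratio scaling (3200 of the 9191 mRNAs) and 10 after protein-coding scaling (2210).

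**Figure D2:**
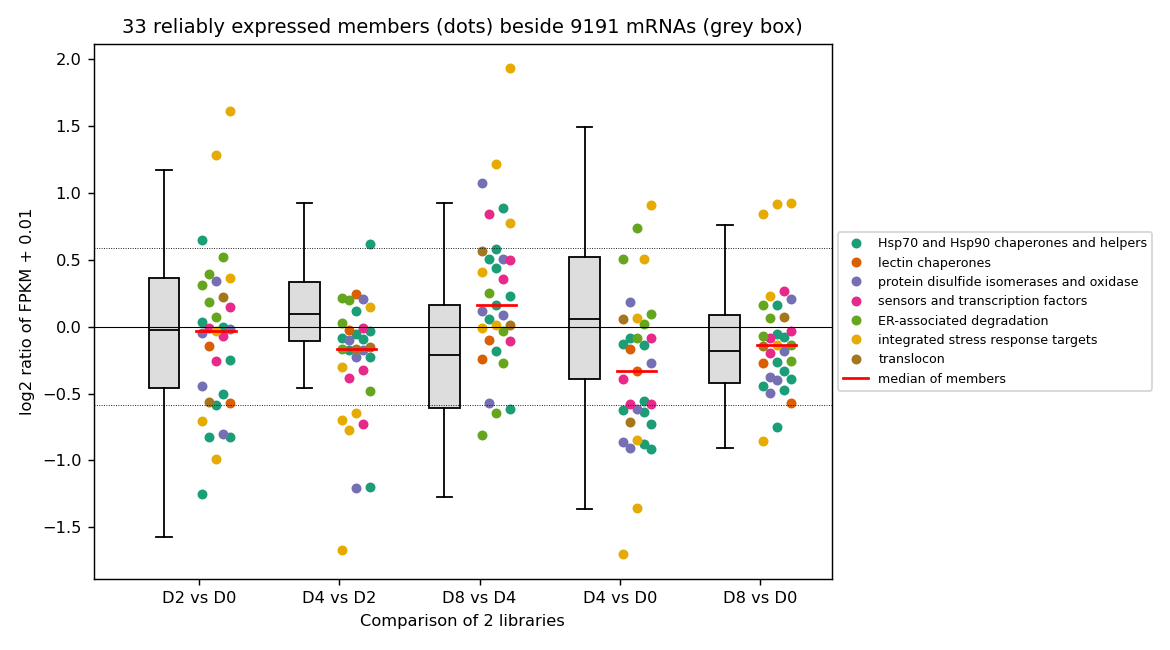
Log2 ratios of the 33 reliably expressed members (dots, coloured by role; red line, their median) in the 5 comparisons, beside a grey box of the 9191 reliably expressed mRNAs (median, quartiles, whiskers from the 5th to the 95th percentile); dotted lines mark 1.5-fold. The members' median lies under that of all mRNAs for D4 vs D2 (-0.16 beside 0.09) and D4 vs D0 (-0.33 beside 0.06), and above it for D8 vs D4 (0.17 beside -0.21).

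The 9 chaperones of the Hsp70 and Hsp90 systems and their helpers were all lower at D4 than at D0, with a median log2 ratio of -0.62. Of all mRNAs, 53.8% were higher at D4 than at D0. As deposited, 5 of the 9 fell (17.5% of all mRNAs). After median-ratio scaling 6 fell (19.6%), and after protein-coding scaling 4 (1518 of the 9191 mRNAs). HSPA5, the ER Hsp70 and most used marker of the unfolded protein response (chromosome 1 from 265930044 to 265934959, minus strand, Sscrofa11.1), had an FPKM of 349, 197, 185 and 277 at D0, D2, D4 and D8. HSP90B1, the ER Hsp90 (chromosome 5 from 80511513 to 80531016, minus strand), had 319, 180, 174 and 235 at the same stages. Both genes fell by D2 and held that level to D4, and their D8 libraries lay between D0 and D4. Relative to D0, the D4 log2 ratio was -0.91 (-0.93 to -0.90) for HSPA5 and -0.88 (-0.89 to -0.86) for HSP90B1, and that of D8 to D4 was 0.58 (0.56 to 0.60) and 0.44 (0.42 to 0.46). Neither passed 1.5-fold between D4 and D8 as deposited or after protein-coding scaling. Both did after median-ratio scaling, with 0.79 for HSPA5 and 0.65 for HSP90B1.

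MANF, a secreted protein that is released on ER stress, had an FPKM of 46.5, 31.0, 30.2 and 35.4 at D0, D2, D4 and D8. CRELD2, another stress-induced resident of the ER, had 18.4, 7.71, 11.8 and 13.3, with its lowest value at D2 and a log2 ratio of -1.25 (-1.39 to -1.12) for D2 vs D0. SDF2L1, which works with HSPA5 and its co-chaperone DNAJB11, had 11.7, 8.26, 7.07 and 13.1. All of MANF, CRELD2 and SDF2L1 were lower at D2 and D4 than at D0, as HSPA5 was. SDF2L1 rose from D4 to D8, by 0.89 (0.72 to 1.07) on the log2 scale. CRELD2 was 0.62 (0.48 to 0.76) higher at D4 than at D2, which passed 1.5-fold as deposited but not after median-ratio scaling (0.52) or protein-coding scaling (0.55). The D2 vs D0 ratio of MANF, -0.59, likewise passed as deposited but not under these scalings (-0.55 and -0.48). HYOU1, the large ER Hsp70 relative that acts as nucleotide exchange factor, had 13.6, 11.5, 12.5 and 8.11, lowest at D8. Its log2 ratio of D8 to D4 was -0.62 (-0.69 to -0.55), beside a median of -0.21 over all mRNAs, and no longer passed 1.5-fold after median-ratio scaling (-0.41).

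The J-domain co-chaperones of HSPA5 did not move as a group. DNAJB9 (ERdj4), which returns ERN1 to its inactive form, had an FPKM of 24.1, 37.8, 16.4 and 23.3 at D0, D2, D4 and D8. It rose by 0.64 (0.59 to 0.70) on the log2 scale from D0 to D2, while HSPA5 fell, and then fell by 1.20 to D4. DNAJB11 (ERdj3) ranged only from 26.4 to 31.7 and DNAJC3 (p58IPK, an inhibitor of EIF2AK3) from 34.8 to 39.2 over the 4 libraries.

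Of the lectin chaperones, which bind glycoproteins, the soluble CALR had an FPKM of 507, 341, 403 and 341 at D0, D2, D4 and D8. The membrane-bound CANX had 146, 132, 130 and 121. Both were highest at D0 and lowest at D8, and neither passed 1.5-fold in any comparison. The log2 ratio of CALR was -0.57 for D2 vs D0 and -0.57 for D8 vs D0, just short of the threshold.

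The protein disulfide isomerases form and rearrange disulfide bonds. PDIA6, which acts on HSPA5 clients and on the sensors, had an FPKM of 168, 96.2, 89.6 and 127 at D0, D2, D4 and D8, and its log2 ratios to D0 were -0.80 at D2 and -0.91 (-0.94 to -0.87) at D4, close to those of HSPA5 and HSP90B1. PDIA3 (ERp57), the partner of CALR and CANX, had 151, 111, 98.6 and 107, with -0.62 (-0.65 to -0.58) for D4 vs D0. Both isomerases had their lowest value at D4, but PDIA3 was only 0.12 higher at D8 than at D4, against 0.51 for PDIA6, or 0.72 after median-ratio scaling. With protein-coding scaling the D4 vs D0 ratio of PDIA3 was -0.58, just short of 1.5-fold. P4HB, which is also the beta subunit of collagen prolyl hydroxylase, stayed between 277 and 335, lowest at D4. PDIA4 (ERp72) went the other way, with 60.1, 59.4, 68.5 and 46.2, highest at D4. ERO1B, the oxidase that recharges the isomerases, was rare, with 1.72, 2.18, 0.940 and 1.99, and passed the filter on 3 libraries. Its log2 ratio was -1.20 (-1.51 to -0.92) for D4 vs D2 and 1.07 (0.78 to 1.38) for D8 vs D4.

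**Figure D3:**
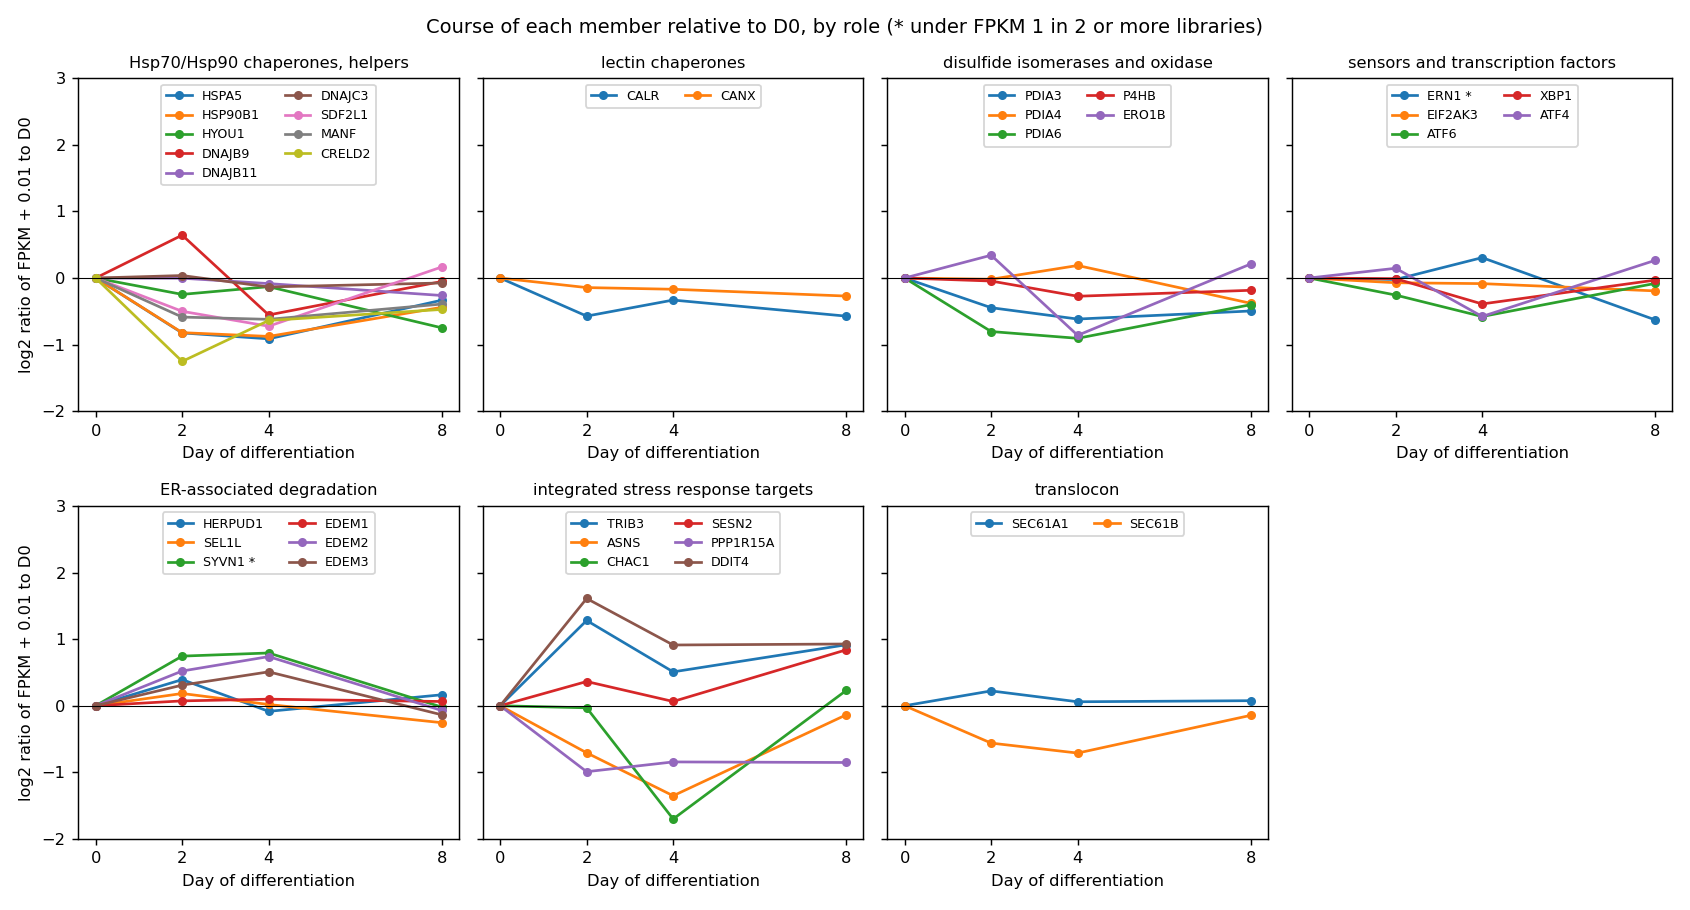
Log2 ratio of FPKM + 0.01 to D0 against the day of differentiation for each member, 1 panel per role; an asterisk marks ERN1 and SYVN1, which were under FPKM 1 in at least 2 libraries. HSPA5, HSP90B1 and PDIA6 run nearly on top of each other, with -0.91, -0.88 and -0.91 at D4, while DDIT4 and TRIB3 peak at D2 and CHAC1 and ASNS reach their lowest point at D4.

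Of the sensors, EIF2AK3 was the steadiest and passed no threshold. It had an FPKM of 8.28, 7.88, 7.81 and 7.24 at D0, D2, D4 and D8. ERN1 was at 0.853, 0.840, 1.06 and 0.548, too low to be counted as reliably expressed, and its D8 value was 0.94 lower on the log2 scale than its D4 value (-1.19 to -0.71). ATF6, which is cleaved to a transcription factor that acts on chaperone genes, had 31.9, 26.7, 21.4 and 30.2. Its log2 ratio was -0.58 (-0.61 to -0.55) for D4 vs D0, just under 1.5-fold as deposited. It passed 1.5-fold after median-ratio scaling (-0.63) but not after protein-coding scaling. The sensors are regulated mainly as proteins, and their activation was not measured here.

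The 2 transcription factors XBP1 and ATF4 both had their lowest value at D4, but XBP1 passed 1.5-fold in no comparison. Its log2 ratio of D4 to D0 was -0.39 (-0.42 to -0.36). XBP1, whose mRNA is spliced by ERN1, had an FPKM of 125, 125, 95.8 and 123 at D0, D2, D4 and D8. FPKM per gene does not separate its spliced from its unspliced form. ATF4, which is translated when eIF2 is phosphorylated (chromosome 5 from 8742964 to 8745752, minus strand), had 211, 233, 141 and 253. ATF4 fell from D2 to D4 by 0.72 on the log2 scale (-0.75 to -0.70) and rose from D4 to D8 by 0.84 (0.82 to 0.87). D0, D2 and D8 of ATF4 lay within 1.5-fold of each other, and D4 was the lowest, with a log2 ratio to D0 of -0.58 (-0.60 to -0.55). This ratio was -0.63 and past 1.5-fold after median-ratio scaling, but not past it after protein-coding scaling.

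Of the 5 reliably expressed genes of ER-associated degradation, 2 were highest at D2 (16.7% of all mRNAs) and 3 at D4 (37.3%). The difference from the chaperones was not tested. EDEM2, a protein of the mannosidase family that marks glycoproteins for disposal, had an FPKM of 15.2, 21.8, 25.4 and 14.5 at D0, D2, D4 and D8. EDEM3, a mannosidase of the same family, had 10.1, 12.6, 14.4 and 9.22. Both were highest at D4 and lowest at D8, with log2 ratios of D8 to D4 of -0.81 (-0.90 to -0.72) and -0.65 (-0.71 to -0.59). After median-ratio scaling the EDEM3 ratio was -0.44 and no longer passed 1.5-fold. EDEM1 was the steadiest of all members, between 16.1 and 17.2. SEL1L, the adaptor of the ubiquitin ligase, stayed between 25.0 and 33.9. The ligase SYVN1 (HRD1) was at 0.997, 1.68, 1.73 and 0.983, and it shares its locus with MRPL49 on the opposite strand, whose FPKM of 11.6 to 17.8 was also higher at D2 and D4. Whether counting used the strand is not given in the sources used here. HERPUD1, a stress-induced protein of the same complex, had 40.8, 53.6, 38.5 and 45.7, highest at D2 and lowest at D4. Of the 5 reliably expressed genes of this role, 5 were higher at D2 than at D0 (48% of all mRNAs), none of them by 1.5-fold (15.6%). Of these 5, 1 was lowest at D4, near the 17.5% of all mRNAs, and 6 of the 9 Hsp70 and Hsp90 genes were.

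The 6 targets of the integrated stress response among the members did not share 1 course. ASNS, asparagine synthetase (chromosome 9 from 77318341 to 77336290, minus strand), had an FPKM of 152, 93.2, 59.6 and 138 at D0, D2, D4 and D8. CHAC1, an enzyme that degrades glutathione (chromosome 1 from 130360510 to 130363332, minus strand), had 12.1, 11.8, 3.70 and 14.2. Both were lowest at D4 and were back near D0 at D8. Relative to D0, the D4 log2 ratio was -1.35 (-1.39 to -1.31) for ASNS and -1.70 (-1.86 to -1.55) for CHAC1, and that of D8 to D4 was 1.22 (1.18 to 1.26) and 1.93 (1.78 to 2.10). These were the only members lower by 2-fold at D4 than at D0. ASNS had already fallen by D2, whereas the D2 value of CHAC1 was within counting error of D0.

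DDIT4 (REDD1; chromosome 14 from 75117708 to 75119907, plus strand), an inhibitor of mTORC1 that is also a known glucocorticoid target, had an FPKM of 129, 393, 242 and 245 at D0, D2, D4 and D8. TRIB3, a pseudokinase induced by ATF4, had 6.95, 16.9, 9.90 and 13.1. Both peaked at D2, under the cocktail, with log2 ratios to D0 of 1.61 (1.59 to 1.64) and 1.28 (1.20 to 1.37), and both remained above D0 at D4 and D8. SESN2, a leucine sensor upstream of mTORC1, had 2.04, 2.62, 2.13 and 3.65, highest at D8. PPP1R15A (GADD34), the phosphatase subunit that reverses eIF2 phosphorylation, had 15.3 at D0 and then 7.70, 8.53 and 8.48, so that it fell once, before D2, by 0.99 (-1.10 to -0.89) on the log2 scale. The members of this role thus did not share a direction at D2, where 2 rose, 2 fell and 2 passed no threshold.

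Of the translocon, the channel through which chains enter the ER, the small subunit SEC61B had an FPKM of 417, 283, 255 and 377 at D0, D2, D4 and D8. SEC61A1, the pore itself, had 38.1, 44.4, 39.7 and 40.1. SEC61B fell from D0 to D4, with a log2 ratio of -0.71 (-0.75 to -0.68), while SEC61A1 stayed within 1.17-fold over the 4 libraries.

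The course of ASNS and CHAC1 was set beside that of 39 other genes known as ATF4 targets, chosen by name. The list was chosen with earlier results of these data known, so it gives no independent support. Of the 39 genes, 36 were reliably expressed. At D4, 27 of the 36 had fallen from D0 (17.5% of all mRNAs), 19 of them by 2-fold (8.81%), and 2 had risen (22%). The median log2 ratio of the 36 was -1.04. From D4 to D8, 20 rose (9.92% of all mRNAs), 14 of them by 2-fold (4.43%), and 2 fell (25.9%), with a median of 0.74. D4 was the lowest stage for 32 of the 36 (17.5% of all mRNAs), and 32 were lower at D2 and at D4 than at D0 and higher again at D8 than at D4 (27.9% of all mRNAs). Both counts were 32 after median-ratio scaling, and 31 and 29 after scaling on the sum of protein-coding FPKM.

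All 12 aminoacyl-tRNA synthetases of the list, which charge tRNAs with amino acids, were lowest at D4 (17.5% of all mRNAs). From D0 to D4, 11 of them fell (17.5%). LARS did not and differed little between stages, with an FPKM of 57.0, 52.8, 52.2 and 53.3 at D0, D2, D4 and D8. SARS had an FPKM of 423, 225, 146 and 330 at D0, D2, D4 and D8. All 6 enzymes of serine, glycine and one-carbon metabolism were lowest at D4 too (17.5% of all mRNAs). Their log2 ratios of D4 to D0 ran from -2.05 (PSPH) to -0.33 (ALDH1L2). CTH, which makes cysteine, and STC2, a secreted stanniocalcin, were the genes of the list with the largest fall from D0 to D2, with log2 ratios of -1.87 and -1.87. STC2 returned from 5.55 at D4 to 23.9 at D8, close to its 25.1 at D0, whereas CTH reached 34.2 from 15.4, far from its 88.6 at D0. The 2 largest rises were those of SESN1, from 4.87 at D0 to 30.7 at D2, and SESN3, from 2.29 to 6.46. These sestrins are also known as targets of FOXO factors. Together with ALDH1L2 and the transporter SLC1A5, named after their values were seen, they were the 4 genes outside the common course. The 4 genes of the list not lowest at D4 were VEGFA (D2), SLC1A5 and SESN3 (D8) and SESN1 (D0), and of the 6 members of this role only ASNS and CHAC1 were lowest there.

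**Figure D4:**
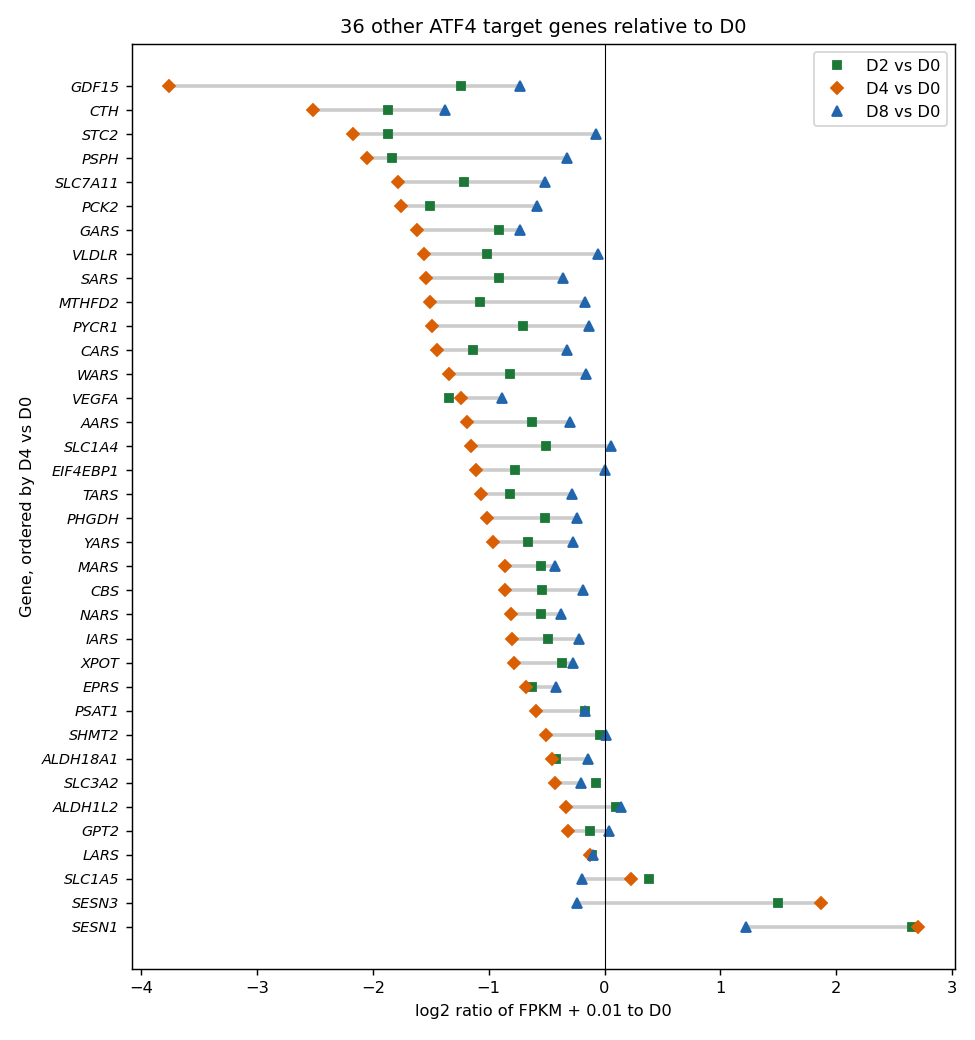
Log2 ratio of FPKM + 0.01 to D0 of the 36 reliably expressed other ATF4 target genes (rows, ordered by D4 vs D0); squares are D2, diamonds D4 and triangles D8, and grey bars join D4 and D8. The diamonds lie left of 0 for 33 of the 36 genes, with a median of -1.04, and the triangles lie to their right for 33 of them.

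The remaining genes of the secretory pathway were again listed by name. Of 31 reliably expressed other ER folding genes, 24 were higher at D2 than at D0 (48% of all mRNAs), with a median log2 ratio of 0.32, 4 rose (15.6%) and 1 fell (20.1%). From D4 to D8, 10 of the 31 fell (25.9% of all mRNAs) and 2 rose (9.92%), with a median of -0.35 beside -0.21 over all mRNAs. The shares that rose at D2 and fell at D8 were near those of all mRNAs. SIL1, a nucleotide exchange factor of HSPA5, had an FPKM of 28.7, 51.7, 51.9 and 30.9 at D0, D2, D4 and D8, the reverse of HSPA5. DNAJC1 also rose from D0 to D2, by 0.68 on the log2 scale. ERO1A, the main ER oxidase, had 29.5, 14.4, 17.5 and 32.5 and had the lowest D2 vs D0 ratio of this list, -1.03, followed by DNAJB14 with -0.47.

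Of 21 other genes of ER-associated degradation, 2 rose (15.6% of all mRNAs) and 2 fell (20.1%) from D0 to D2, with a median of -0.20. OS9, a lectin of the SEL1L complex, rose from 45.2 to 87.9, and FAF2 rose by 0.71 on the log2 scale. NGLY1, which strips glycans from retrotranslocated proteins, fell from 32.4 to 6.13, and SELENOS fell from 143 to 83.0 and stood at 153 at D8. Among 26 other translocation, signal peptidase and oligosaccharyltransferase genes, none rose (15.6%) and 2 fell (20.1%) from D0 to D2, with a median of 0.07. The extremes were KRTCAP2 (0.48) and MAGT1 (0.45) at the upper end and TRAM2 (-0.79) and TRAM1 (-0.67) at the lower. Of 19 other stress transducers and factors, 6 rose (15.6%) and 2 fell (20.1%) from D0 to D2, with a median of 0.15. NUPR1, a stress-induced nuclear protein, had an FPKM of 221, 1284, 325 and 268 at D0, D2, D4 and D8, and CREB3L2 rose by 0.99 on the log2 scale, while BAK1 (-0.88) and TRAF2 (-0.69) fell.

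Back-splice junctions were found inside 9 of the 35 members, for 23 of the 8623 circRNAs of the series. Of the 23, 11 appeared in 1 library and 2 in all 4. The same counts over all mRNAs and over all 8623 circRNAs were not made. Whether the members differ from other genes in this was therefore not tested. CANX gave 7 circRNAs with 60, 23, 52 and 15 junction reads at D0, D2, D4 and D8. The single circRNA of HSP90B1 (chromosome 5 from 80512428 to 80513094) had 31 junction reads at D0, 2 at D2 and none at D4 or D8, while the FPKM of HSP90B1 fell less than 2-fold. ATF6 gave 5 circRNAs with 14, 10, 18 and 18 junction reads. The authors kept circRNAs with 2 or more junction reads. A listed 0 does not show absence, since it can stand for 0 or 1 reads, and a true mean of several reads can give it.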

How the data were processed

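RNA of 4 stages was measured in 4 libraries, each a pool of 3 piglets. Libraries were made with a directional kit after rRNA removal, per the labels. The authors aligned trimmed reads to Sus scrofa 11.1 with HISAT2 2.0.5 (submitters' processing notes) and deposited FPKM for 22944 genes. For 8623 circRNAs the deposited values are SRPBM, junction reads scaled by reads mapped with BWA. The counter and its gene lengths are not given in the sources used here. Library totals were computed from tRNA and miRNA genes, whose length is known from their coordinates. For other genes the smallest length at which all 4 FPKM values are whole fragments (within 0.01) was taken. It was found for 22913 genes, which held 98.8% to 99.0% of the totals. Where that length is a fraction of the true one, intervals are too wide. The junction reads of circRNAs were computed from SRPBM, with the smallest value of each library taken as 2 reads, the authors' minimum.

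The 5 comparisons, the filter (FPKM 1 reached in 3 or 4 libraries) and the 2-fold threshold follow the study's methods, and 1.5-fold was added. Ratios used a pseudocount of 0.01. With 1 library a stage no test was possible. Members and lists were chosen with earlier results of these data known. Named are all members. Of each other list but the markers, the 2 most raised and 2 most lowered genes at D2 relative to D0 are named. A few genes of the ATF4 list (SARS, LARS, PSPH, ALDH1L2, SLC1A5, VEGFA) were added after their values were seen. The cell type markers named did not follow this rule. Positions of all 35 members equalled those of RefSeq genes (Sscrofa11.1). Python 3.11.15, pandas 2.3.3 and scipy 1.17.1 were used, and the scripts were tested on simulated data.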

Additional observations from a re-analysis of the deposited data

How the results depend on the processing

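No call of a single member at 1.5-fold changed its direction under another pseudocount (0.1 or 1), median-ratio scaling or scaling on the sum of protein-coding FPKM. Of 51 such calls over the 35 members and 5 comparisons, 50 stayed past 1.5-fold in the same direction with a pseudocount of 0.1, 41 with 1, 46 with median-ratio scaling and 47 with protein-coding scaling. Median-ratio scaling also brought 10 further values past 1.5-fold and protein-coding scaling 2, while neither pseudocount brought any. Of the medians and counts of members, the following moved. Median-ratio scaling gave medians of -0.25 for D4 vs D2, 0.38 for D8 vs D4, -0.39 for D4 vs D0 and 0.0185 for D8 vs D0. It also gave 0 members at least 1.5-fold higher for D4 vs D2, 13 higher and 1 lower at 1.5-fold and 5 higher at 2-fold for D8 vs D4, and 2 higher at 2-fold for D8 vs D0. Protein-coding scaling gave medians of 0.0778 for D2 vs D0, -0.23 for D4 vs D2 and 0.12 for D8 vs D4, and 0 members at least 1.5-fold higher for D4 vs D2. With a pseudocount of 1 that last count was also 0. Without the filter on low FPKM, 5 members were at least 1.5-fold lower for D8 vs D4 and the median of D4 vs D0 was -0.27, because ERN1 and SYVN1 then entered. The other medians moved by less than the members' median counting error and the other counts stayed within 1.5 times, including all of those with a pseudocount of 0.1 or with FPKM 1 required in all 4 libraries. No paired analysis was possible because each stage has 1 library. The depth limits ERO1B, ERN1 and SYVN1, which had 154 to 538 fragments a library.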

Other observations

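The chaperones outside the ER were also listed by name. Of 33 listed cytosolic and mitochondrial chaperone genes, 28 were reliably expressed. From D0 to D2, 23 of the 28 were lower (4778 of the 9191 mRNAs), 7 fell (20.1% of all mRNAs) and 2 rose (15.6%). The median log2 ratio of the 28 was -0.46, beside -0.03 over all mRNAs. The 2 that rose were the mitochondrial chaperonins HSPD1 and HSPE1. HSPD1 had an FPKM of 132, 215, 254 and 137 at D0, D2, D4 and D8, and HSPE1 had 287, 458, 535 and 364, so that both peaked at D4, where HSPA5 and HSP90B1 were lowest. The largest falls were those of CRYAB, a small heat shock protein abundant in muscle, from 32.2 to 1.56, and of DNAJB4, from 24.0 to 5.27. CRYAB stood at 19.6 and DNAJB4 at 15.9 at D8. D4 was the lowest stage for 5 of the 28 (17.5% of all mRNAs) and D0 the highest for 22 (36.5%). For D4 vs D2 and D8 vs D4 the median of this list was 0.07 and -0.08, and it changed its sign after median-ratio scaling (-0.02 and 0.14).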
